A study of Mus musculus with 13 samples.

Results

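The 10 genes described here make, sense and carry bile acids in the mouse liver. They are 4 enzymes of synthesis (Cyp7a1, Cyp8b1, Cyp27a1 and Cyp7b1), 3 genes of sensing and feedback (Nr0b2, Nr1h4 and Fgfr4) and 3 transporters (Slc10a1, Abcb11 and Slc51b). They were chosen by function, as a list of symbols, and all 10 had a row in a table of read counts for 22048 genes. All 10 passed the filter on low counts, which kept 13831 genes over the 3 groups, and they also passed it in the 6 control livers alone.

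The data are 13 mRNA libraries of whole mouse liver. The 6 control livers were not depleted of hepatic stellate cells (replicates 1, 2 and 6 male, replicates 3, 4 and 5 female). The 4 depleted livers had lost hepatic stellate cells, which line the sinusoids as pericytes and store vitamin A (replicate 3 male, the others female). The 3 hepatectomised livers, which were not depleted, were taken 72 h after partial hepatectomy, in which a share of the liver is cut out and the rest grows back (replicates 1 and 2 male, replicate 3 female). Strain, age, alleles, the agent or transgene behind the depletion, and the cells it reached are not given in the sources used here. The labels do not say that the libraries of a group came from separate animals beyond listing them as separate samples, so the p-values measure the spread between these samples.

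Bile acids are made from cholesterol in hepatocytes. In the classic pathway Cyp7a1, the rate-limiting cholesterol 7-alpha-hydroxylase, acts first, and Cyp8b1, a sterol 12-alpha-hydroxylase, sets how much cholic acid is made. In the alternative pathway the mitochondrial sterol 27-hydroxylase Cyp27a1 acts first, followed by the oxysterol 7-alpha-hydroxylase Cyp7b1. Bile acids bind the nuclear receptor FXR (gene Nr1h4), which induces the repressor SHP (gene Nr0b2), and both restrain synthesis. Another brake comes from the ileum, whose hormone Fgf15 acts on hepatocytes through the receptor Fgfr4 with its co-receptor Klb. Hepatocytes take bile acids up from blood through NTCP (gene Slc10a1), export them into bile through BSEP (gene Abcb11), and can return them to blood through the heterodimer OST-alpha and OST-beta (genes Slc51a and Slc51b).

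Library totals ran from 35360991 to 51008737 counts, so that 3 counts stood for 0.0588 to 0.0848 CPM (counts scaled to a library of 1e6). CPM values below carry edgeR's TMM scaling (trimmed mean of M values). Of 7 hepatocyte markers, Alb made up most of the sum and Fgb is also on the acute-phase list used below. Set apart from both, a choice made after their values were seen, the other 5 summed to 12017 to 31466 CPM in control, 15574 to 17843 in depleted and 23128 to 29020 in hepatectomised livers, and Alb held 39685 to 117686, 51044 to 143508 and 88350 to 140031 CPM. Of the 7, Apoa2 was called lower in depleted livers (-0.73 ± 0.23, edgeR adjusted p = 0.0248) and Fgb higher in hepatectomised livers (1.63 ± 0.14, adjusted p = 5e-05). All 10 stellate markers were lower in depleted livers, with summed levels of 13.6 to 50.8 CPM against 198.7 to 560.6 in controls. Depleted replicate 4 stood apart from the other 3, with a stellate sum of 50.8 CPM against 13.6 to 18.5 CPM and Clec4f, a marker of resident Kupffer cells, at 69.5 CPM against 0.236 to 3.44 CPM. Control replicate 6 and hepatectomy replicate 2 stood apart by their low sums over 6 Kupffer cell markers (52.2 and 58.3 CPM, against 311.7 to 464.9 in the other controls) and over 6 sinusoidal endothelial markers (69.4 and 69.8 CPM, against 231.5 to 333.2). The 10 bile acid genes took 0.221% to 0.372% of counts in control, 0.127% to 0.188% in depleted and 0.172% to 0.186% in hepatectomised livers.

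Promoter sequences of RefSeq (GRCm38.p6), from 250 bases before to 50 bases after each start, were found for 8 of the 10 genes, with 2 for Slc10a1 and so 9 in all. None is given for Cyp7a1 and Cyp7b1. The 4 below are shown because these genes span the roles, and because Cyp8b1, Abcb11 and Slc51b set depleted replicates 1 and 2 apart from replicates 3 and 4, as described further on. They lie at chr9:121916256-121916555 (minus strand, Cyp8b1), chr4:133553126-133553425 (plus strand, Nr0b2), chr2:69342567-69342866 (minus strand, Abcb11) and chr9:65422724-65423023 (minus strand, Slc51b), and are written 5′ to 3′ on the gene's strand. Capitals mark the matches described after them.
Cyp8b1: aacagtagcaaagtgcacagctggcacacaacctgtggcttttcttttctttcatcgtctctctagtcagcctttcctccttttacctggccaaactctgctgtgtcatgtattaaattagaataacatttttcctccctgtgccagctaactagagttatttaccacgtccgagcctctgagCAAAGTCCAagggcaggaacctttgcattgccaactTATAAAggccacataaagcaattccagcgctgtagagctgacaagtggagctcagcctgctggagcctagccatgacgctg
Nr0b2: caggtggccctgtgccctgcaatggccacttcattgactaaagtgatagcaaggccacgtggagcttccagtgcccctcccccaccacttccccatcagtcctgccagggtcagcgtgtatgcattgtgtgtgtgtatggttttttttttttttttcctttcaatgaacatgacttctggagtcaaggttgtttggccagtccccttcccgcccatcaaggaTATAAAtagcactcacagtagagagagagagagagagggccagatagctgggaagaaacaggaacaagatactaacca
Abcb11: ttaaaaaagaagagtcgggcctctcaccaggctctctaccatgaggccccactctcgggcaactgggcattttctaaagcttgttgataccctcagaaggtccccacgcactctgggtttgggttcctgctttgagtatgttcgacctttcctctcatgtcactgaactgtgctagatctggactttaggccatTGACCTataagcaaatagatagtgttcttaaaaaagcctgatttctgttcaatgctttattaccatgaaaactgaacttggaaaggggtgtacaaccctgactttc
Slc51b: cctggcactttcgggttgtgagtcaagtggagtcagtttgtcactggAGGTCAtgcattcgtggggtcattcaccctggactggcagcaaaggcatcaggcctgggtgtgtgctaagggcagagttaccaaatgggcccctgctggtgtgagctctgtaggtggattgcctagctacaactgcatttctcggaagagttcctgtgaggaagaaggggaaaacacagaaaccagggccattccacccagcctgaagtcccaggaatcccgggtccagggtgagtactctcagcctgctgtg

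The letters searched, on both strands, were AGGTCA (the half-site read by FXR and other nuclear receptors), AGGTCANTGACCT (the inverted repeat bound by FXR with its partner RXR), CAAAGTCCA (a core of the site of the hepatocyte factor HNF4), CAAGGTCA (a core of the site of the receptor NR5A2) and TATAAA (the TATA box). The first lies within the inverted repeat and overlaps the NR5A2 core. Cyp8b1 had the HNF4 core 67 bases before its start and TATAAA at 31 bases, and Nr0b2 had TATAAA at 28 bases. Abcb11 had the half-site on the opposite strand, printed as TGACCT, 56 bases before its start, and Slc51b had it on its own strand at 203 bases. The half-site was in 4 of the 9 promoters, TATAAA in 3 and the HNF4 core in 1, and neither the inverted repeat nor the NR5A2 core was in any. Among all 32851 promoters of the same length, the shares were 16.3% for the half-site, 0.00913% for the inverted repeat, 0.475% for the HNF4 core, 1.56% for the NR5A2 core and 13.6% for TATAAA. These are matches of letters only.

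In depleted livers the synthesis genes Cyp7a1 and Cyp27a1 and the export pump gene Abcb11 fell, none of the 10 rose, and 7 were not called (edgeR's quasi-likelihood test with Benjamini-Hochberg adjustment over all genes, adjusted p under 0.05). A call in this comparison was common, since 33.9% of all genes tested were called and 15.0% were called lower, so that 3 of 10 called is close to the background of calls in both directions. In hepatectomised livers Cyp7a1 fell and the other 9 were not called, against 8.42% of all genes called and 2.36% called lower. With the replicate number as a block, the Cyp7a1 call was lost and Slc10a1 was called lower, where 4.57% of all genes were called. The CPM ranges of depleted and control livers did not overlap for Cyp7a1, Cyp8b1 and Cyp27a1, or 3 of 10 genes against 28.4% of all genes. Those of hepatectomised and control livers did not overlap for Cyp7a1 alone among the 10, against 13.7% of all genes. The median log2 fold change of the 10 was -0.74 for depletion and -0.20 for hepatectomy, beside -0.03 and -0.02 over all genes tested. Both comparisons share the 6 control livers. Without depleted replicate 4, 5 of the 10 were called lower in depleted livers, Cyp8b1 and Cyp7b1 besides these 3, where 16.7% of all genes were called lower. Between depleted and hepatectomised livers, 2 of the 10 were called, Cyp7a1 and Cyp27a1, both lower in depleted livers, where 23.4% of all genes were called. DESeq2 also called Abcb11 (-0.90, adjusted p = 0.0413), where it called 28.5% of all genes. Whole liver was measured, so fewer cells of a type and less RNA per cell cannot be told apart.

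**Figure D1:**
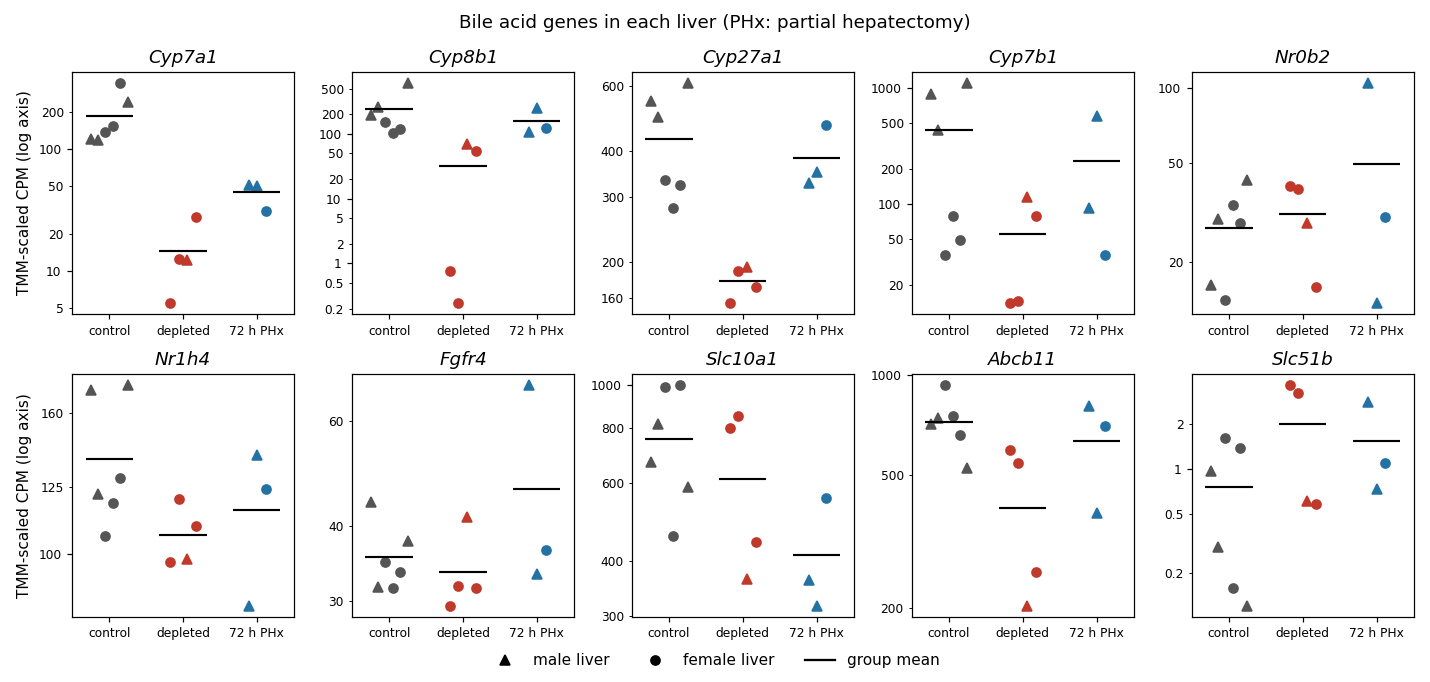
TMM-scaled CPM of each of the 10 genes (log axes, one panel a gene) in 6 control, 4 depleted and 3 hepatectomised (72 h PHx) livers; triangles are male livers, circles female livers, and lines group means. Cyp7a1 sits between 117 and 343 CPM in controls and at or below 27.6 CPM in every depleted liver, and the Cyp8b1 panel shows 2 depleted livers below 1 CPM.

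Among the enzymes of synthesis, Cyp7a1 was called lower in both comparisons with control. It lies at chr4:6265612-6275633 (ENSMUSG00000028240; GRCm38). Its level in controls ran from 117 to 343 CPM with a median of 144 CPM. The depleted livers held 5.53, 12.6, 12.3 and 27.6 CPM, and the hepatectomised livers 51, 49.9 and 30.8 CPM. Every depleted liver lay below every hepatectomised liver, and every hepatectomised liver below every control. The depleted mean of 14.5 ± 9.30 CPM (SD, n = 4) was 7.84% of the control mean of 185 ± 90.0 CPM (n = 6), and the log2 fold change was -3.70 with a standard error of 0.50 (edgeR adjusted p = 0.000171), a call kept under every alternative run. Standard errors follow the ± of each fold change below. The hepatectomised mean of 43.9 ± 11.4 CPM (n = 3) was 23.7% of the control mean, a log2 fold change of -2.03 ± 0.52 (adjusted p = 0.0331). With the replicate number as a block this became -1.42 (adjusted p = 0.0621), and the call was lost without control replicate 6 (-1.83, adjusted p = 0.0697) and without hepatectomy replicate 1, 2 or 3 (-2.16, -2.15 and -1.67). It was also lost in males only (-1.66, adjusted p = 0.0559) and females only (-2.76, adjusted p = 0.362). Depleted and hepatectomised livers differed by -1.68 ± 0.54 (adjusted p = 0.043), a call that leaving out control replicate 1 or 2, any of depleted replicates 1 to 3, or hepatectomy replicate 1 or 2 ended, at values from -1.63 to -1.45. Fits of these groups alone or of one sex, upper quartile or library size scaling, and no or a stricter low-count filter ended it too, with adjusted p from 0.0506 to 0.499.

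Cyp7a1 is known as a gene of pericentral hepatocytes, those around the central vein. A list of 5 other pericentral genes, chosen with earlier results of these data known, was set beside it. All 5 were called lower in depleted livers, where 15.0% of all genes were called lower. In hepatectomised livers 1 of 5 was called lower (Axin2, a Wnt target gene), beside 2.36% of all genes. The summed level of the 5, mostly that of Cyp2e1, was 11947 to 16198 CPM in controls, 1248, 1420, 1995 and 2634 CPM in depleted livers and 5525, 10533 and 11566 CPM in hepatectomised livers. A list of 5 periportal genes summed to 6398 to 11427 CPM in controls and 6239 to 12197 CPM in depleted livers, which overlap. Of these 5, Pck1 was higher (0.91 ± 0.23, adjusted p = 0.00907) and Ass1 lower (-0.79 ± 0.24, adjusted p = 0.0207) in depleted livers, and Pck1 alone was called in hepatectomised livers, where it was higher. Of 8 monocyte and neutrophil markers, Lcn2 is also on the acute-phase list and made up most of their sum in both treated groups. Without it, a choice made after its values were seen, the other 7 summed to 2.82 to 10.8 CPM in controls, 213.8 to 537.9 CPM in depleted and 20.5 to 38.1 CPM in hepatectomised livers. Lcn2 itself held 3.001 to 16.9 CPM in controls, 642 to 1591 CPM in depleted and 827 to 2507 CPM in hepatectomised livers. The 6 acute-phase genes, Lcn2 and Fgb among them, which hepatocytes make in inflammation, summed to 5722 to 8894 CPM in controls, 14070 to 23877 CPM in depleted and 27263 to 66564 CPM in hepatectomised livers. Their part in the lower Cyp7a1 was not tested.

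Cyp8b1 (chr9:121914356-121916305, ENSMUSG00000050445), whose promoter is printed above, gave the widest spread of the 10 among depleted livers, as the ratio of highest to lowest. Controls ran from 102 to 614 CPM with a median of 176 CPM. Depleted replicates 1 and 2 held 0.771 and 0.246 CPM (36 and 11 counts), and replicates 3 and 4 held 71.1 and 54.1 CPM (4074 and 2427 counts). All 4 depleted livers were thus below the lowest control, 2 of them by far. The fold change was -2.66 ± 1.10 on the log2 scale and was not called (adjusted p = 0.0816). It was called by DESeq2 (-2.65, adjusted p = 0.037), by limma-voom (-4.05, adjusted p = 0.00966) and by edgeR without depleted replicate 4 (-4.20, adjusted p = 0.021). The hepatectomised livers held 108, 250 and 126 CPM, within the range of the controls (-0.58 ± 1.09, adjusted p = 0.798).

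Per kilobase of exon, Cyp8b1 was 0.730 to 5.45 times as high as Cyp7a1 in controls. The ratio was 0.299 and 0.0419 in depleted replicates 1 and 2, but 12.3 and 4.20 in replicates 3 and 4. It was 4.53, 10.7 and 8.73 in hepatectomised livers. In the balance of these transcripts, 2 depleted livers thus lay below every control, 1 above and 1 among them.

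Cyp27a1 (chr1:74713574-74737892, ENSMUSG00000026170) fell in depleted livers with little spread. Controls ran from 280 to 611 CPM with a median of 414 CPM, and the depleted livers held 155, 189, 194 and 172 CPM. The depleted mean was 41.1% of the control mean, a log2 fold change of -1.16 ± 0.21 (adjusted p = 0.00118), called under every alternative run. The hepatectomised livers held 329, 351 and 470 CPM, inside the control range (-0.15 ± 0.22, adjusted p = 0.711). By sex, the 2 male hepatectomised livers (329 and 351 CPM) lay below every male control (494 to 611 CPM), and the female one (470 CPM) lay above every female control (280 to 333 CPM). Depleted livers were also lower than hepatectomised ones (-1.003 ± 0.24, adjusted p = 0.00954), with ranges that did not overlap. That call was lost without depleted replicate 3 (-0.93, adjusted p = 0.0508), without hepatectomy replicate 3 (-0.48, adjusted p = 0.165) and in males only (-0.81, adjusted p = 0.11).

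Cyp7b1 (chr3:18071950-18243338, ENSMUSG00000039519) split by sex in the controls. Male controls held 891, 430 and 1104 CPM, and female controls 36.0, 78.8 and 48.5 CPM. Depleted livers held 14.0 and 14.7 CPM (replicates 1 and 2, female), 114 CPM (replicate 3, male) and 78.9 CPM (replicate 4, female). Hepatectomised livers held 91.4 and 570 CPM (male) and 36.6 CPM (female). The male depleted liver was below every male control, and 2 of the 3 female depleted livers were below every female control. With sex in the model, depletion changed it by -1.21 ± 0.71 (adjusted p = 0.215) and hepatectomy by -0.98 ± 0.72 (adjusted p = 0.437), and neither was called. Without depleted replicate 4 the first was -2.28 (adjusted p = 0.00938).

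In the 6 controls alone, Cyp7b1 was higher in males by 3.89 ± 0.45 on the log2 scale (edgeR adjusted p = 0.015), and it was the single call among the 10, where 0.738% of 13005 genes were called. The call was lost without control replicate 1, 3, 5 or 6, with adjusted p from 0.0502 to 0.094 and values from 3.60 to 3.82. Cyp27a1 held 548, 494 and 611 CPM in males and 333, 280 and 323 CPM in females (0.82 ± 0.15, adjusted p = 0.0608). Cyp8b1 held 199, 261 and 614 CPM in males and 154, 102 and 117 CPM in females (1.52 ± 0.43, adjusted p = 0.256). The sexes did not overlap in controls for Cyp7b1, Cyp27a1 or Cyp8b1, and the share of all genes with such a gap was not counted. DESeq2 called both Cyp27a1 and Cyp8b1, where it called 3.42% of all genes. Of 41 further bile acid genes tested, 2 were called higher in male controls, Scp2 (1.52 ± 0.17, adjusted p = 0.00624) and Abcg2 (1.30 ± 0.22, adjusted p = 0.044), named after their values were seen. A sex difference in the effect of depletion or of hepatectomy was called for none of the 10 in edgeR's interaction test, where 0.0217% and 0% of all genes were called. At an unadjusted p under 0.05, 1 of 10 passed in each, beside 3.47% and 7.23% of all genes, Cyp27a1 both times (-0.65 ± 0.27 and -1.29 ± 0.27 for male minus female effects). After adjustment in edgeR these gave p of 0.9999 for depletion and 0.450 for hepatectomy. No other tool was run on the interaction. The depleted group had 1 male liver and the hepatectomised group 1 female liver.

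None of the 3 genes of sensing and feedback was called in depleted, hepatectomised or male against female livers. At an unadjusted p under 0.05 the count over the 10 genes was 4 for depletion and 2 for hepatectomy, beside 43.6% and 24.3% of all genes at that threshold, and none of those were sensing genes. DESeq2 and limma-voom also called none of the 3.

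Nr0b2 (chr4:133553376-133556536, ENSMUSG00000037583), the SHP gene, held 14.1 to 42.6 CPM in controls with a median of 29.1 CPM. The depleted livers held 40.4, 39.3, 28.6 and 15.9 CPM (0.26 ± 0.51, adjusted p = 0.733). The hepatectomised livers held 104, 13.7 and 30.3 CPM (0.77 ± 0.55, adjusted p = 0.418). Hepatectomy replicate 1 alone lay above every control and replicate 2 below every control. Without replicate 1 the hepatectomy value was -0.35, so its sign rested on that liver.

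Nr1h4 (chr10:89454234-89533585, ENSMUSG00000047638), the FXR gene, ran from 106 to 175 CPM in controls with a median of 126 CPM. It was 97.4, 120, 98.2 and 110 CPM in depleted livers (-0.32 ± 0.18, adjusted p = 0.200) and 84.2, 139 and 124 CPM in hepatectomised livers (-0.25 ± 0.19, adjusted p = 0.455). Fgfr4 (chr13:55152640-55168759, ENSMUSG00000005320), the receptor for the ileal hormone, ran from 31.6 to 43.8 CPM in controls with a median of 34.2 CPM. It was 29.5, 31.8, 41.4 and 31.6 CPM in depleted livers (-0.015 ± 0.17, adjusted p = 0.960), a value whose sign turned with the scaling (0.094 with library size alone). Hepatectomised livers held 68.6, 33.3 and 36.5 CPM, and replicate 1 alone lay above the controls (0.31 ± 0.19, adjusted p = 0.337). Hepatectomy replicate 1 was thus the highest of the 13 livers for both Nr0b2 and Fgfr4 and the lowest for Nr1h4.

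**Figure D2:**
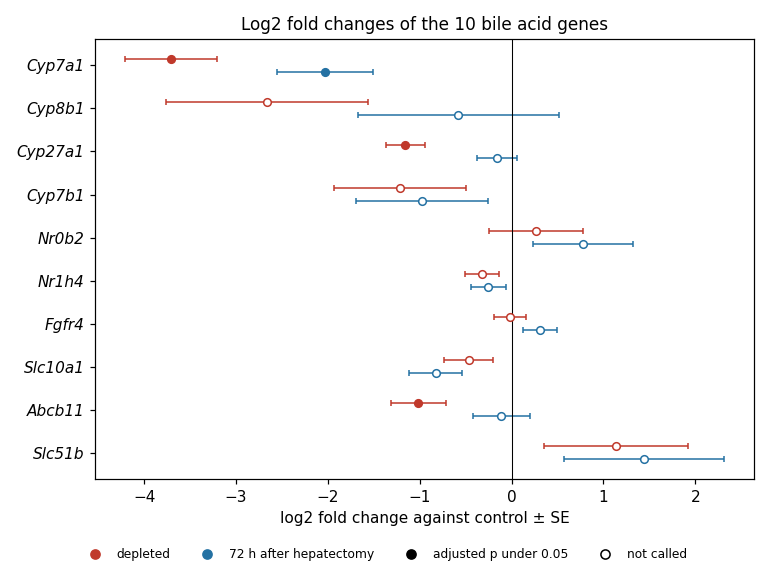
Log2 fold change (x axis) of each of the 10 genes in depleted (red) and hepatectomised (blue) livers against the same 6 controls; points are edgeR estimates, bars are ± 1 standard error, and filled points have an adjusted p under 0.05. Filled points are Cyp7a1 in both comparisons and Cyp27a1 and Abcb11 in depleted livers; Nr1h4, Fgfr4 and Slc10a1 lie within 1 of 0.

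Of the 3 transporters, Abcb11 alone was called, in depleted livers. Slc10a1 (chr12:80953183-80968705, ENSMUSG00000021135), the main uptake carrier of conjugated bile acids, ran from 455 to 999 CPM in controls with a median of 745 CPM. The depleted livers held 800, 854, 364 and 442 CPM, and the hepatectomised livers 363, 317 and 556 CPM. Depleted replicates 1 and 2 were inside the control range and 3 and 4 below it. Neither depletion (-0.47 ± 0.27, adjusted p = 0.204) nor hepatectomy (-0.83 ± 0.29, adjusted p = 0.0985) was called. The hepatectomy value was called with the replicate block (-0.95, adjusted p = 0.0401), by DESeq2 (-0.82, adjusted p = 0.038), with library size alone (-1.04, adjusted p = 0.0209), in males only (-1.03, adjusted p = 0.0454) and without control replicate 4 (-0.96, adjusted p = 0.0181). The depletion value was called without that same control (-0.67, adjusted p = 0.0277).

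Abcb11 (chr2:69238282-69342616, ENSMUSG00000027048), the canalicular bile salt export pump, was called lower in depleted livers. Controls ran from 526.2 to 931 CPM with a median of 728 CPM. The depleted livers held 594, 543, 203 and 256 CPM, so that replicates 1 and 2 overlapped the controls and 3 and 4 lay far below them. The depleted mean of 399 ± 198 CPM (SD, n = 4) was 55.3% of the control mean of 721 ± 132 CPM (n = 6), at -1.02 ± 0.30 on the log2 scale (adjusted p = 0.0199). The call was lost without depleted replicate 3 (-0.75, adjusted p = 0.122), in females only (-0.75, adjusted p = 0.169) and in males only (-1.70, adjusted p = 0.06). Hepatectomised livers held 806, 386 and 703 CPM (-0.11 ± 0.31, adjusted p = 0.866). Abcb11 overlaps the antisense gene Gm13613 and the pseudogene Gm13614, and whether the counting used strand is not given in the sources used here.

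Per kilobase of exon, Slc10a1 was 1.86 to 4.64 times as high as Abcb11 in controls. The ratio was 4.14, 4.83, 5.51 and 5.30 in depleted livers and 1.38, 2.52 and 2.43 in hepatectomised livers. It was above every control in 3 of the 4 depleted livers and below every control in 1 of the 3 hepatectomised livers. It was not tested.

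Slc51b (chr9:65412714-65422955, ENSMUSG00000053862), the OST-beta subunit, rested on few reads. Controls held 4 to 69 counts, from 0.12 to 1.63 CPM with a median of 0.630 CPM. The depleted livers held 3.66, 3.25, 0.611 and 0.579 CPM (171, 145, 35 and 26 counts), and the hepatectomised livers 2.82, 0.730 and 1.10 CPM (96, 26 and 44 counts). Depleted replicates 1 and 2 and hepatectomy replicate 1 were above every control, and the other 4 treated livers were inside the control range. Neither depletion (1.13 ± 0.78, adjusted p = 0.295) nor hepatectomy (1.44 ± 0.87, adjusted p = 0.334) was called. Its partner subunit gene Slc51a had 0 counts in all 13 livers. Slc51b overlaps Rasl12 on the opposite strand, which had 0 to 6 counts a library.

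Several of these genes split the depleted livers in the same way, with replicates 1 and 2 together and 3 and 4 together. Over all genes compared, replicates 1 and 2 were also the most alike pair of depleted livers. Their median chi-square per gene was 6.30, against 14.6 to 35.9 for the other pairs. The share of all genes with this split was not counted. Replicates 1 and 2 were the lower ones for Cyp8b1 and Cyp7b1 and the higher ones for Slc10a1, Abcb11 and Slc51b. Nr0b2 was also higher in replicates 1 and 2 than in 3 and 4, with all 4 livers inside its control range and replicates 3 and 4 unlike each other (28.6 and 15.9 CPM). Cyp7a1, Cyp27a1, Nr1h4 and Fgfr4 did not show the split. The same livers, in the order 1 to 4, had Alb at 101181, 143508, 58516 and 51044 CPM, sums over 5 other hepatocyte markers of 15917, 17843, 17604 and 15574 CPM, Kupffer cell sums of 661.6, 569.5, 889.3 and 1288 CPM, and stellate sums of 13.9, 13.6, 18.5 and 50.8 CPM. The 7 monocyte and neutrophil markers without Lcn2 summed to 405.7, 365.4, 537.9 and 213.8 CPM, and Lcn2 held 642, 682, 1591 and 1079 CPM. Replicates 1, 2 and 4 were female and replicate 3 male. The part of these in the split was not tested, and the labels give no batch.

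Levels were compared between genes per kilobase of exon. In controls the order of means was Slc10a1 (450.5 CPM per kb), Cyp7b1 (199), Cyp27a1 (199), Abcb11 (140), Cyp8b1 (124), Nr1h4 (59.6), Cyp7a1 (44.3), Nr0b2 (24.2), Fgfr4 (10.04) and Slc51b (1.55). The Cyp7b1 mean pools unlike sexes, with 373 CPM per kb in males and 25.1 in females, where it was below Cyp7a1 at 50.5. Neighbours in this order overlapped, apart from Nr0b2 with Fgfr4 and Fgfr4 with Slc51b. In depleted livers Slc10a1 still led, at 367 CPM per kb, and Cyp7a1 was the last, at 3.48 CPM per kb beside 4.15 for Slc51b, whose range it overlapped. In hepatectomised livers Cyp7a1 was the ninth at 10.5 CPM per kb, above Slc51b at 3.18 and without overlap. The transcript of the rate-limiting enzyme thus stood above that of the feedback receptor Fgfr4 in controls and below it in every depleted liver, where Fgfr4 was 8.33 to 11.7 CPM per kb and Cyp7a1 1.32 to 6.61.

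The rest of the pathway was read from a list of 46 further genes, of which 43 passed the filter. In depleted livers 15 of the 43 were lower and 5 higher, with a median log2 fold change of -0.29 (all genes -0.03). By role, 5 of 15 genes of synthesis and conjugation were lower and 3 higher, 3 of 12 genes of sensing lower and 1 higher, and 7 of 16 transporters lower and 1 higher. These 20 of 43 stand beside 33.9% of all genes. Among them, Vdr and Ch25h passed the filter only through treated livers. In hepatectomised livers 3 were higher and 1 lower, or 4 of 43 beside 8.42% of all genes, with 12 at an unadjusted p under 0.05, where 24.3% of all genes stood.

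Within synthesis, Hsd3b7, the 3-beta-hydroxysteroid dehydrogenase that acts after the 7-alpha-hydroxylases, fell from 496 ± 116 CPM in controls to 142 ± 22.3 CPM in depleted livers (-1.78 ± 0.21, adjusted p = 4.47e-05). Its 4 depleted livers held 139, 112, 158 and 160 CPM, all below the lowest control at 321 CPM. In hepatectomised livers it held 282, 257 and 346 CPM and was called at the edge of the threshold (-0.75 ± 0.21, adjusted p = 0.0483; -0.70, adjusted p = 0.0514 with the replicate block; lost on leaving out any of 10 of the 13 livers). Akr1c6, an aldo-keto reductase, fell from 1528 to 238 CPM in depleted livers (-2.63 ± 0.40, adjusted p = 0.000347). Cyp2c70, the mouse enzyme that forms muricholic acids, rose from 715 to 1510 CPM (1.06 ± 0.22, adjusted p = 0.00232), with all 4 depleted livers, at 1270 to 1802 CPM, above the highest control at 844 CPM.

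Ch25h, a cholesterol 25-hydroxylase that macrophages express, rose in both comparisons from 0 to 4 counts in controls. It had 56, 86, 60 and 113 counts in depleted livers (5.04 ± 0.76, adjusted p = 0.000283) and 2, 37 and 16 counts in hepatectomised livers (3.41 ± 0.80, adjusted p = 0.0215, and 2.11, adjusted p = 0.177 without hepatectomy replicate 2). At such counts, as for Vdr below, the fitted fold depends on the prior count. Ch25h passed the low-count filter only through treated livers, where it was high. The conjugating enzymes were not called in either comparison. Baat, which joins bile acids to taurine, was 0.44 ± 0.24 in depleted and -0.34 ± 0.26 in hepatectomised livers, and the bile acid ligase Slc27a5 was -0.39 ± 0.18 and -0.13 ± 0.19. Akr1d1, the 5-beta-reductase, was -0.12 ± 0.34 and -0.38 ± 0.39 on the same scale.

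Within sensing, Vdr, the vitamin D receptor that also binds lithocholic acid, had 0 to 5 counts in controls and 122, 92, 360 and 320 counts in depleted livers (6.41 ± 0.72, adjusted p = 3.68e-05). Vdr passed the low-count filter only through the depleted livers, where it was high. It had 0 to 7 counts in hepatectomised livers and was not called there (0.49 ± 0.99). Rxra, the shared partner of FXR and other receptors, fell slightly in depleted livers (-0.47 ± 0.12, adjusted p = 0.00809). Nr5a2, a receptor known to act on Cyp8b1, was called at -0.55 ± 0.19 (adjusted p = 0.0384) and was lost on leaving out control replicate 3, 4, 5 or 6 or depleted replicate 3, with sex left out, in either sex alone, with library size alone and with the stricter filter. Hnf4a (-0.11 ± 0.20) and the co-receptor Klb (-0.70 ± 0.33) were not called in depleted livers, nor in hepatectomised ones. In hepatectomised livers Nr1i2, the xenobiotic and bile acid receptor PXR, rose to 102, 101 and 134 CPM from 48.6 to 79.8 CPM in controls (0.79 ± 0.16, adjusted p = 0.0108), a call lost without hepatectomy replicate 3 (0.66, adjusted p = 0.0644). Fgf15, the ileal hormone, had 0 counts in all 13 livers.

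The higher Vdr and Ch25h of depleted livers stood beside higher marker sums of myeloid cells. Without Lcn2, all 7 monocyte and neutrophil markers were called higher in depleted livers and 4 of 7 in hepatectomised livers, with the sums given above. All genes gave 33.9% and 8.42% called in either direction. Of the 8 markers with Lcn2, 5 passed the low-count filter in controls alone. The others passed it only through treated livers, where they were high. Of 6 Kupffer cell markers, 3 were called higher in depleted livers, beside 33.9% of all genes called in either direction. The sum over the 6 was 569.5 to 1288 CPM in depleted livers against 52.2 to 464.9 in controls. In depleted livers Marco and Cd5l made up most of that sum. The fold change was negative for 2 of the 6, Clec4f among them. Clec4f was not called, at 0.236, 2.17, 3.44 and 69.5 CPM in depleted livers against 20.3 to 165 CPM in controls. Hepatectomised livers had Kupffer cell sums of 677.2, 58.3 and 242.8 CPM. No defining marker of these lists was at 0 throughout a group. Their part in the 2 genes was not tested.

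Within transport, the 7 genes lower in depleted livers included carriers of uptake and of canalicular export. Slco1b2, a sinusoidal uptake carrier, fell from 1743 to 722 CPM (-1.28 ± 0.21, adjusted p = 0.000593), with 955, 906, 594 and 434 CPM in the depleted livers, all below the lowest control at 1503 CPM. Slco1a1, another uptake carrier, held 1.05, 4.39, 19.0 and 77.8 CPM in depleted livers against 87.7 to 811 CPM in controls (-4.06 ± 1.14, adjusted p = 0.0157, and -3.66, adjusted p = 0.069 without depleted replicate 3). Abcb4, which moves phosphatidylcholine into bile, fell to 100, 87.1, 85.5 and 83.4 CPM from 205 to 301 CPM (-1.49 ± 0.17, adjusted p = 3.99e-05). Abcc2, a canalicular exporter of conjugates, fell by 0.94 ± 0.21 on the log2 scale (adjusted p = 0.00421).

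Of the basolateral exporters, Abcc4, which carries bile acids back to blood, rose from 2.03 to 8.58 CPM in depleted livers (1.95 ± 0.34, adjusted p = 0.000774), with all 4 at 6.34 to 11.1 CPM above the highest control at 2.83 CPM. Abcc3, with the same direction of transport, was at -0.16 ± 0.36 and was not called. Slco1a4 (-1.14 ± 0.52) and Ephx1 (-0.08 ± 0.35) were also not called. In hepatectomised livers Slc10a2, the bile acid carrier of ileal enterocytes and of bile duct cells, rose to 33.8, 41.8 and 30.8 CPM from 2.05 to 9.53 CPM in controls (2.501 ± 0.47, adjusted p = 0.00848). Fits of one sex alone, with fewer livers, ended the calls of Abcc2 and Slc10a2 (females), Abcc4, Cyp2c70 and Ch25h in depleted livers (males), Slco1a1 (females), Rxra in depleted livers (either sex), and Nr1i2 and Ch25h in hepatectomised livers (either sex).

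**Figure D3:**
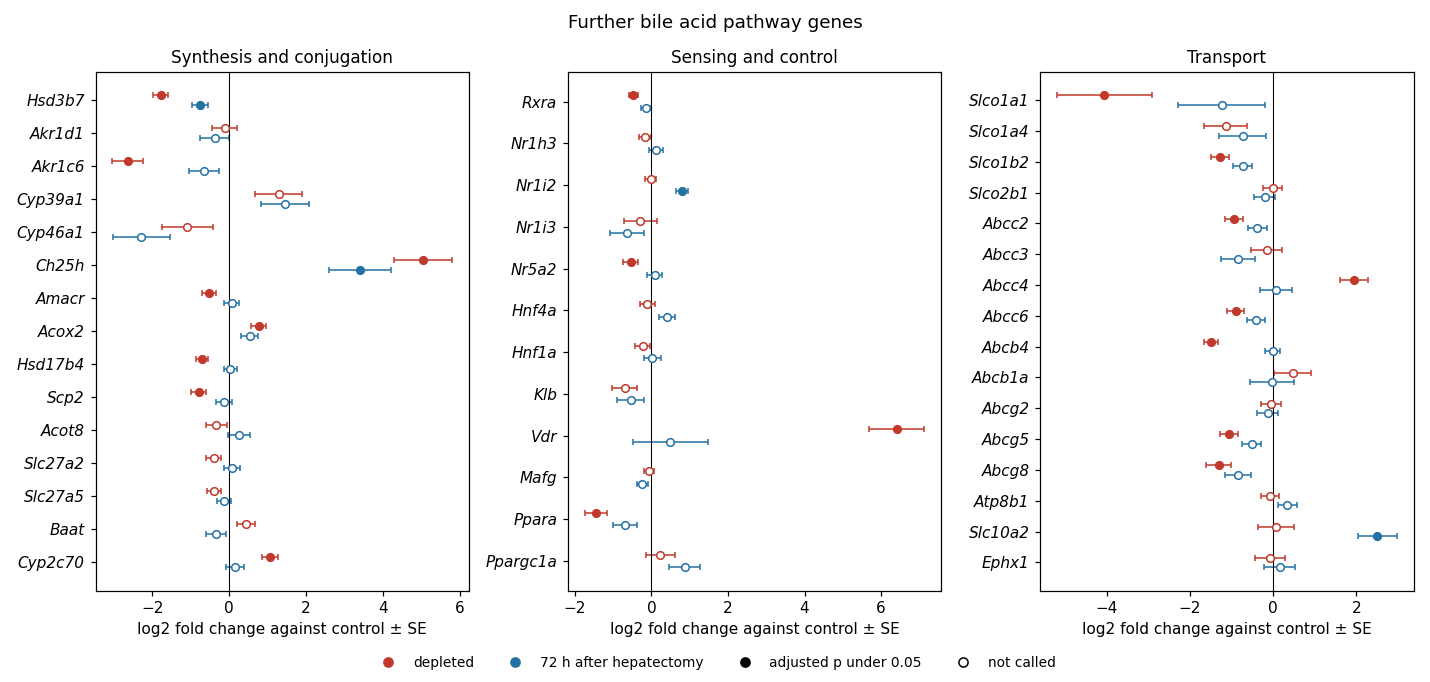
Log2 fold change against control (x axis) of the 43 further bile acid genes tested, by role, in depleted (red) and hepatectomised (blue) livers; filled points have an adjusted p under 0.05. The depleted livers carry 20 filled points, from -4.06 (Slco1a1) to 6.41 (Vdr), and the hepatectomised livers 4.

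Bile duct markers were read beside Slc10a2. Of 8 cholangiocyte markers 7 were tested and 2 were called higher in hepatectomised livers, among them Krt19 (0.780 to 1.152 CPM in controls, and 4.06, 1.99 and 6.53 CPM) and Krt7 (2.14 ± 0.39, adjusted p = 0.00715). The sum over the 8, mostly that of Spp1, was 63.8 to 108.6 CPM in controls and 98.3 to 112.2 CPM in hepatectomised livers, and none of the 8 was at 0 throughout a group. Of the 4 ileal enterocyte markers, 2 were at 0 in all 13 livers, Fgf15 among them. The part of these cells in the higher Slc10a2 was not tested.

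Among 13400 genes compared over the 13 livers, those with patterns nearest to Cyp7a1 were Axin2, Cyp1a2 (a pericentral cytochrome P450) and Gulo (a vitamin C synthesis enzyme). Likeness is the mean absolute difference of log2 CPM after each gene is centred on its own mean, and it was 0.57, 0.60 and 0.61. Genes were picked by this measure over the same 13 livers, so a pattern shared with the member follows from the choice. Nearest to Cyp8b1 were the major urinary protein genes Mup10 and Mup3 and the receptor subunit gene Chrna2, at 0.83, 0.91 and 1.05. The Mup genes are near-identical copies, so how reads were shared between them is uncertain. Nearest to Slc51b were Cyp39a1 (an oxysterol 7-alpha-hydroxylase), Zfp185 and Pcp4l1, at 0.50, 0.67 and 0.67. Cyp39a1 held 164, 228, 43.4 and 21.3 CPM in depleted livers, with replicates 1 and 2 above every control (12.6 to 61.9 CPM) as for Slc51b, and was not called (1.29 ± 0.61, adjusted p = 0.125).

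**Figure D4:**
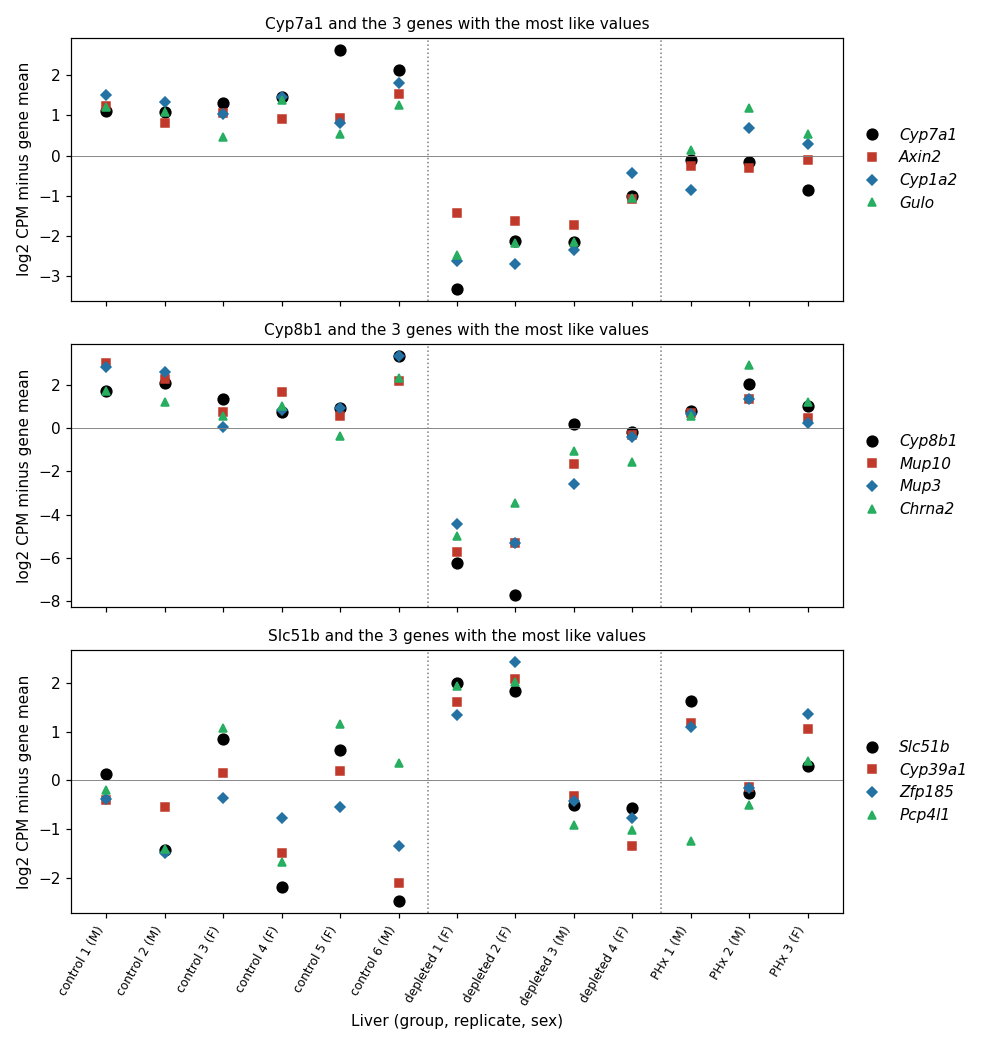
Centred log2 CPM (y axis) of Cyp7a1, Cyp8b1 and Slc51b and of the 3 genes nearest to each, over the 13 livers (x axis, by group and replicate). The genes were picked for likeness over these same livers, so shared patterns follow from the choice. Axin2 lies low with Cyp7a1 in all 4 depleted livers, and the Cyp8b1 and Slc51b panels show depleted replicates 1 and 2 apart from replicates 3 and 4.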

How the data were processed

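Total RNA from whole liver was made into stranded mRNA libraries with the Illumina TruSeq chemistry from 500 ng each and run over 2 flowcell lanes, per the labels' protocols. The authors deposited raw read counts per gene with a gene length in bases. STAR 2.7.1a, SAMtools 1.15.1, featureCounts 1.6.4 and the build mm10 are named per the submitters' processing notes, and their settings for strand and multi-mapped reads are not given in the sources used here. Of the 22048 gene IDs, 21741 matched GENCODE M21 (GRCm38, the same assembly as mm10), which gave symbols and coordinates, and 307 did not. Exon coordinates overlapped the same gene for 99.94% of matched IDs. Summed Y-linked counts matched the labelled sex in all libraries (at least 4051 in males, at most 73 in females).

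Counts were tested two-sided with edgeR 4.0.16 in R 4.3.3 (TMM scaling, filterByExpr on the groups, estimateDisp, robust glmQLFit, glmQLFTest), with group and sex over all 13 libraries and Benjamini-Hochberg adjustment over all genes tested, at a threshold of 0.05. Male and female controls were compared in the 6 controls alone. Log2 CPM used a prior count of 2. The script was tested on simulated data. Alternatives, including DESeq2 1.42.0 and limma 3.58.1 (voom), are in the closing section. Reads carried no molecular identifiers, so the floor of 3 counts covers counting error only. Libraries of a group differed by more than sampling noise (lowest median chi-square per gene 4.60, 6.30 and 13.37 in control, depleted and hepatectomised livers), and all 13 were counted as separate.

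The 10 genes, the further and marker lists and the naming rule were chosen with earlier results of these data known. All 10 genes are named. Of the further genes, those of a fixed list and those called with the 6 lowest p-values in each comparison with control are named, with at most 3 genes a marker list. The hepatocyte list had 8 symbols, of which 7 matched a row. Males-only fits and the interaction with sex were added after the data were seen.

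Replicate numbers come from the descriptions and titles. Deviations of same-numbered control and hepatectomised livers correlated at 0.11 to 0.52. The main tests hold no block for the number. For this comparison, values with the number as a block are printed beside the result where a call changes. Same-numbered livers of these groups also share sex, and with sex removed the correlations were -0.19 to 0.08. The other pairs of groups gave -0.34 to 0.07 (control and depleted) and -0.35 to -0.0012 (depleted and hepatectomised), or -0.0981 to 0.42 and 0.0409 to 0.27 with sex removed. For these pairs, blocked values are in the closing section.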

Additional observations from a re-analysis of the deposited data

How the results depend on the processing

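Of the counts of calls in 6 results, 102 of 138 alternatives stayed within 1.5 times the main value. The count of 3 calls among the 10 genes in depleted livers stayed at 2 to 4 under every scaling, filter and tool and in females only, though there the Abcb11 call was lost (edgeR adjusted p = 0.169). Leaving out one library gave 2 to 5 (5 without depleted replicate 4, 2 without depleted replicate 3). All genes gave 33.9% called in the main fit, 19.0% in females only, 37.6% with DESeq2 and 21.6% to 35.1% on leaving out one library. The 1 call in hepatectomised livers (8.42% of all genes called) became 2 with DESeq2 (14.0%) and 2 with library size alone (15.8%). On leaving out one library it became 0 to 2 (3.43% to 10.6%). The count stayed at 1 with the replicate block (4.57%) and in males only (3.80%). There Cyp7a1 was lost (edgeR adjusted p = 0.0621 and 0.0559) and Slc10a1 called (adjusted p = 0.0401 and 0.0454). The 2 calls between depleted and hepatectomised livers (23.4% of all genes called) became 1 with those 2 groups only (15.5%), 1 with upper quartile scaling (22.4%) and 1 with library size alone (26.8%). They became 1 with no low-count filter (18.6%), 1 with the stricter filter (20.1%), 4 with the replicate block (22.9%) and 0 to 2 on leaving out one library (12.4% to 28.0%). The 1 call between male and female controls (0.738% of all genes called) became 3 with DESeq2 (3.42%) and 0 to 1 on leaving out one library (0.241% to 1.51%). Of the further genes, the 20 calls in depleted livers became 12 in females only, 11 in males only and 15 to 22 on leaving out one library (the share of all genes called was 33.9%, 19.0% in females only and 11.2% in males only), and the 4 in hepatectomised livers became 0 in females only, 9 with library size alone, 2 with the stricter filter and 2 to 6 on leaving out one library. For hepatectomised livers, 8.42% of all genes were called in the main fit, 15.8% with library size alone and 8.55% with the stricter filter. Leaving out one library gave 3.43% to 10.6%, and females only left 1 hepatectomised liver. The rise to 9 with library size alone thus came where calls over all genes also rose. The stricter filter tests fewer genes and the sex splits use fewer libraries. The cause of the other moves was not tested.

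Library size alone moved the median of all genes to -0.24 for hepatectomy (626 higher and 1566 lower, against 838 and 326 with TMM) and to 0.27 for depleted against hepatectomised livers (3102 and 610, against 1837 and 1399). Values that changed sign were not called on either side. In depleted against control livers, Fgfr4 became 0.13 in males only, 0.025 with upper quartile scaling, 0.094 with library size alone, 0.019 with the stricter filter, 0.015 with the replicate block and -0.079 to 0.021 on leaving out one library, and Nr0b2 became -0.041 in males only. In hepatectomised against control livers, females only gave Cyp27a1 0.60, Cyp8b1 0.027 and Nr1h4 0.090. In depleted against hepatectomised livers, library size alone gave Fgfr4 0.00254, Cyp7b1 0.12 and Nr1h4 0.25, females only gave Nr0b2 0.062 and Slc51b 1.18, and Slc51b became 0.39 with sex left out and 0.11 with the replicate block. Leaving out one library gave signs of both kinds for hepatectomy in Abcb11 (-0.47 to 0.095), Cyp27a1 (-0.59 to 0.017), Fgfr4 (-0.018 to 0.52) and Nr0b2 (-0.35 to 1.199). The same held for depleted against hepatectomised livers in Cyp7b1 (-1.29 to 0.33), Nr0b2 (-0.91 to 0.49), Nr1h4 (-0.25 to 0.10) and Slc51b (-1.10 to 0.66), and for male against female controls in Cyp7a1 (-0.83 to 0.14) and Nr0b2 (-0.16 to 0.50). The replicate block gave 4 calls among the 10 genes in depleted livers, Cyp8b1 being added (-3.96, adjusted p = 0.0234), and 22 among the further genes, with that of Nr5a2 lost (-0.58, adjusted p = 0.0798). Between depleted and hepatectomised livers it added Cyp8b1 (-3.93, adjusted p = 0.0386) and Abcb11 (-0.94, adjusted p = 0.0245). Over all genes it gave 3887 calls in depleted livers (4692 without), 632 in hepatectomised livers (1164 without) and 3170 between them (3236 without). Of 4 depleted livers, 0 correlated best with the control of their own number, and of 3 hepatectomised livers 2 did, or 2 and 0 with sex removed. Slc51b rested on only 4 to 171 counts a library, and the depleted and hepatectomised groups held 4 and 3 livers with 1 of one sex in each.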

Other observations

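Between depleted and hepatectomised livers, 9 of the 43 further bile acid genes were called by edgeR, 3 higher and 6 lower in depleted livers. Higher were Vdr (5.92 ± 0.94 on the log2 scale, adjusted p = 0.000953), Abcc4 (1.88 ± 0.44, adjusted p = 0.00865) and Cyp2c70 (0.91 ± 0.26, adjusted p = 0.026). Of these, Vdr passed the low-count filter only through the depleted livers, where it was high. Lower were the phospholipid carrier gene Abcb4 (-1.47 ± 0.19, adjusted p = 0.00028), Akr1c6 (-1.98 ± 0.43, adjusted p = 0.00618), Slc10a2 (-2.43 ± 0.53, adjusted p = 0.00619), Nr1i2 (-0.81 ± 0.18, adjusted p = 0.00619), Hsd3b7 (-1.03 ± 0.23, adjusted p = 0.0066) and the peroxisomal side-chain enzyme gene Hsd17b4 (-0.73 ± 0.19, adjusted p = 0.0133), the last named after its values were seen. Abcb4 held 170, 243 and 305 CPM in hepatectomised livers and 83.4 to 100 CPM in depleted ones, so the ranges did not overlap. All genes tested gave 23.4% called in this comparison.

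Transcript of the alternative pathway's Cyp27a1 stood 1.81 to 8.75 times as high per kilobase as that of Cyp7a1 in controls. The ratio was 54.0, 28.8, 30.2 and 12 in depleted livers and 12.4, 13.5 and 29.3 in hepatectomised livers, above every control in all 7. Cyp7a1, its divisor, was itself below every control in all 7, and Cyp27a1 was above the control range in none of them. The ratio was not tested.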
